A study of Homo sapiens with 6 samples.

Results

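DICER1 and the proteins that make and use microRNAs were read on expression arrays in HCT116 cells, an established human colon cancer line, in which the splice form NFX1-91 was targeted by a short hairpin RNA. Of 10 genes named for this group (DICER1, DROSHA, DGCR8, AGO1, AGO2, AGO3, TARBP2, XPO5, TNRC6A and TNRC6B), 6 had a probe set listed for them alone. These 6 genes gave 11 of the 22215 probe sets of the array, 6 of them for DICER1 and 1 each for DROSHA, TARBP2, AGO1, AGO3 and TNRC6B. XPO5 and TNRC6A had no probe set listed, and the 4 probe sets listed for DGCR8 and the 1 listed for AGO2 each name a second gene, so these 4 genes are not described. NFX1-91 shRNA cells carried that hairpin from a lentivirus (vector FUGW), and control cells carried the same vector with a β-galactosidase hairpin (3 arrays each). Both groups are stable transductants of 1 cell line and both express a hairpin, and no label states that arrays within a group derive from independent cultures. The spread between arrays may therefore be technical, and the number of arrays limits the precision.

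MicroRNAs are cut out of longer transcripts in steps. In the nucleus the enzyme DROSHA, held by DGCR8, frees a hairpin from the primary transcript, and XPO5 carries it to the cytoplasm. There DICER1, with its partner TARBP2, removes the loop, and an Argonaute protein keeps one strand and finds messenger RNAs through its seed. TNRC6 proteins, also called GW182 proteins, bind Argonaute and bring in the enzymes that remove poly(A) tails. A lentiviral short hairpin RNA joins the same path at export and is itself cut by DICER1, and DICER1 messenger RNA is a textbook target of the let-7 microRNAs.

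Signals are the deposited intensities brought to a mean of 500 on each array, and differences are NFX1-91 shRNA minus β-galactosidase shRNA on the log2(signal + 16) scale, which understates changes of dim probe sets. A probe set's signal depends on its probes, so brightness is used below to order and choose probe sets and does not compare transcript levels. Pearson correlations of log2 signals were 0.992 to 0.995 for arrays of 1 group and 0.983 to 0.985 across the groups. The hairpin's target was checked first. The brightest NFX1 probe set had 123.9, 139.0 and 137.7 in NFX1-91 shRNA arrays and 159.5, 144.4 and 138.8 in control arrays, with overlapping groups, and the middle one 78.5, 81.03 and 69.34 against 81.74, 90.2 and 70.05, overlapping too. The dimmest had 8.87, 8.83 and 4.56 against 16.79, 17.7 and 24.43 without overlap. It lay at brightness percentile 21.7, and its NFX1-91 shRNA values were all below the offset of 16. By limma it was lower (log2 difference -0.605, adjusted p = 0.0137), while the brightest (-0.129, adjusted p = 0.4) and the middle one (-0.064, adjusted p = 0.775) did not pass. Which NFX1 forms the probe sets read was not given in the sources used here. The exact two-sided permutation p of the 3 NFX1 probe sets was 0.2, 0.5 and 0.1 from the brightest to the dimmest, the lowest value possible with 3 arrays per group being 0.1. Of 12 colon epithelial markers, the keratins KRT8, KRT18 and KRT19 and the adhesion protein EPCAM were bright, whereas VIL1, CDH17, LGALS4 and GPA33 lay below the offset of 16 on average in both groups. By limma 2 of the 12 were higher in NFX1-91 shRNA arrays, KRT8 (log2 difference 0.35, adjusted p = 0.000116) and KRT18 (0.54, 5.61e-05), and 3 were lower, EPCAM (-0.15, 0.00967), the cadherin CDH1 (-0.50, 0.000314) and KRT20 (-0.60, 0.00759). The KRT8 and KRT18 probe sets carry the suffix of probes that may bind other transcripts. By limma KRT19 and the colon transcription factors CDX1 and CDX2 did not pass (adjusted p = 0.308, 0.0673 and 0.633). The part of these marker differences in the results was not tested. Summed signals of 6 fibroblast markers ran from 281.6 to 333.2 in NFX1-91 shRNA arrays and from 249.2 to 335.1 in control arrays. Those of 4 blood cell markers ran from 105.1 to 127.9 and from 79.86 to 104.0 in the same order. By limma 1 of the 4 was higher, HBB (log2 difference 0.45, adjusted p = 0.047), and 0 were lower. PTPRC, with a negative difference, and CD14 lay below the offset on average in both groups. The part of such cells in the results was not tested. The arrays read pooled RNA of a culture, so a change in every cell and a change in the share of cells cannot be told apart.

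DICER1 was higher in NFX1-91 shRNA cells by its 3 brighter probe sets, and AGO1 and TARBP2 were higher by their single probe sets. DROSHA and AGO3 had overlapping groups, and TNRC6B was lower on every NFX1-91 shRNA array. The genes were selected on the differences between these groups seen earlier in the same arrays, those of DICER1, AGO1 and TARBP2 above all, so their values are a description and carry no test. By limma over all probe sets (adjusted p under 0.05), 5 of the 11 probe sets were called higher and 0 lower, where 25.7% of all probe sets were called in either direction, 12.0% higher and 13.7% lower. At an unadjusted p under 0.05 it was 6 higher and 1 lower, where 35.3% of all probe sets passed, 17.1% higher and 18.2% lower. The groups did not overlap for 7 of the 11, with 6 higher and 1 lower, against 39.0% of all probe sets, 19.3% higher and 19.7% lower. Their median log2 difference was 0.28, beside 0.01 over all probe sets. The TARBP2 call was lost without NFX1-91 shRNA array 2 (log2 difference 0.28) and without control array 3 (0.25). Without control array 1, TNRC6B passed (-0.28), and without NFX1-91 shRNA array 3 so did the dim DICER1 probe set 216280_s_at (0.80).

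**Figure D1:**
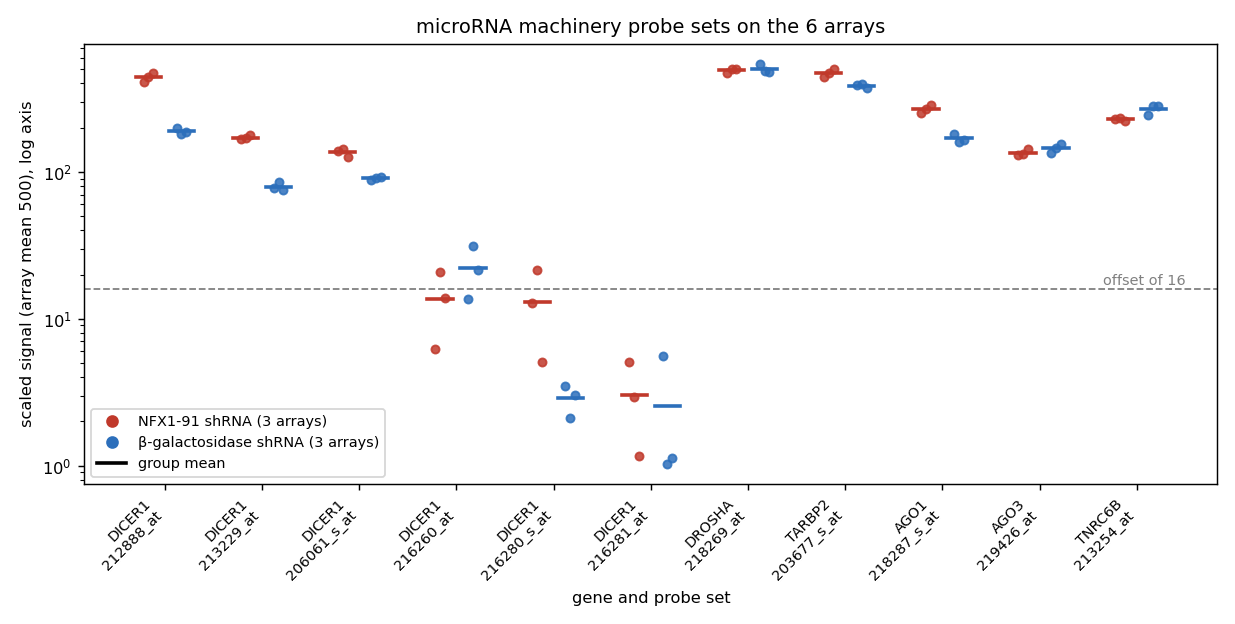
Scaled signal (array mean 500, log axis) of the 11 probe sets, with a point for each array, a bar for each group mean, NFX1-91 shRNA in red and β-galactosidase shRNA in blue, and a dashed line at the offset of 16. The groups stand apart for the 3 brighter DICER1 probe sets, 216280_s_at, AGO1 and TARBP2 (all higher) and TNRC6B (lower), and 3 DICER1 probe sets lie around or below the offset.

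DROSHA, which makes the first cut, had signals of 467.5, 503.0 and 499.4 on the NFX1-91 shRNA arrays, against 542.4, 489.7 and 478.0 on the control arrays. The groups overlapped, and the log2 difference was -0.04 (SE 0.068, 95% interval -0.19 to 0.12), which takes in changes of either sign. Its sign turned with quantile normalization (0.0094) and without control array 1 (0.017).

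DGCR8, the partner that holds DROSHA to its hairpins, shares all of its listed probe sets with the microRNA gene MIR1306. That microRNA lies inside the DGCR8 gene on chromosome 22, and the DROSHA complex is known to cut hairpins of the DGCR8 transcript itself. The listing of MIR1306 beside DGCR8 is the reason that these probe sets were not used for DGCR8. The array does not read mature microRNAs. The mature forms are shown to identify the second gene listed, with the seed (bases 2 to 8) in capitals. They are from RefSeq on GRCh38.p14, plus strand, at chr22:20086072-20086093 and chr22:20086112-20086129.
miR-1306-5p: cCACCUCCccugcaaacgucca
miR-1306-3p: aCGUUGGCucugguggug

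DICER1, the enzyme that cuts the loop, was read by 6 probe sets that fall into a brighter and a dim set. The brightest, 212888_at, had 411.8, 445.4 and 474.0 on the NFX1-91 shRNA arrays, against 200.1, 182.4 and 185.4 on the control arrays. Each NFX1-91 shRNA array thus lay above each control array, by at least 2.06 times and at most 2.60 times. The means were 443.8 ± 31.1 and 189.3 ± 9.49 (SD, n = 3 each), a log2 difference of 1.16 (SE 0.078, 95% interval 0.98 to 1.34). Of all probe sets of the table, 99.8% had a lower log2 difference. DICER1 was selected on this difference, so the rank is a description and carries no test.

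The next brightest, 213229_at, had 166.2, 169.2 and 177.4 on the NFX1-91 shRNA arrays and 77.16, 85.62 and 75.32 on the control arrays. Its groups stood apart as well, with every pair of arrays between 1.94 and 2.36 times, and a log2 difference of 0.97 (SE 0.095, 95% interval 0.76 to 1.19). The third, 206061_s_at, whose suffix marks probes that match several transcripts, had 137.8, 142.9 and 127.0 against 87.63, 91.19 and 92.0. It was higher on every NFX1-91 shRNA array too, but by less, with a log2 difference of 0.51 (SE 0.095, 95% interval 0.30 to 0.73). These 3 probe sets shared a direction. The interval of 206061_s_at ended below the start of those of the other 2, but a difference in size between them was not tested. Which DICER1 transcripts each of them reads was not given in the sources used here.

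The 3 dim DICER1 probe sets lay at brightness percentiles 26.6, 11.9 and 3.0 of the table. Of these, 216280_s_at had 12.88, 21.3 and 5.05 on the NFX1-91 shRNA arrays and 3.50, 2.10 and 3.05 on the control arrays. Its groups did not overlap, although 5 of the 6 values were below the offset. Its log2 difference was 0.58 (SE 0.196), and 1.68 with an offset of 1. The second, 216260_at, had 6.19, 20.74 and 13.75 against 13.64, 31.46 and 21.54, and the third, 216281_at, 5.08, 2.91 and 1.16 against 5.53, 1.02 and 1.13. Their log2 differences were -0.37 (SE 0.226, and -0.74 with an offset of 1) and 0.04 (SE 0.14). Both overlapped, and at these levels neither shows whether the transcript changed.

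**Figure D2:**
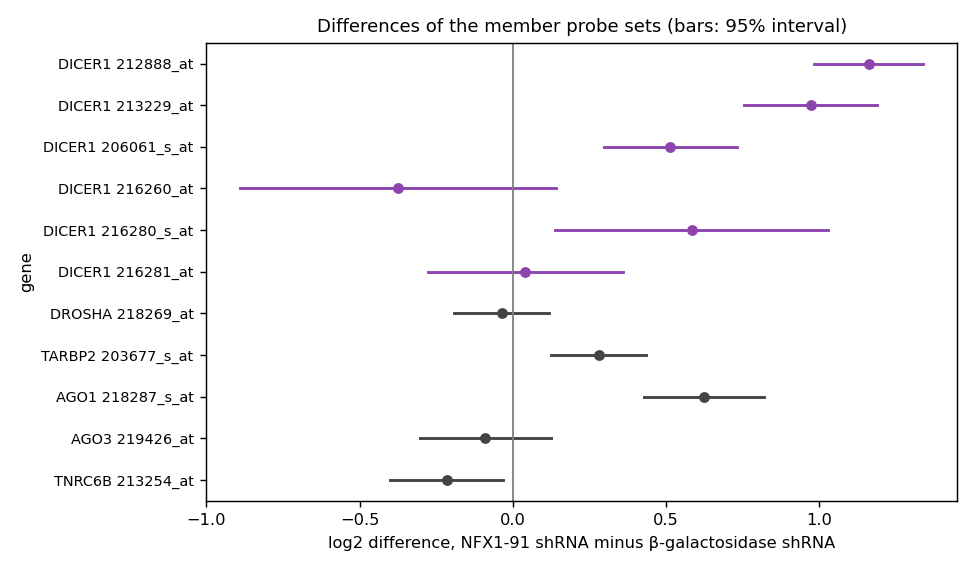
Log2 difference of each of the 11 probe sets (NFX1-91 shRNA minus β-galactosidase shRNA; points) with its 95% interval (bars), DICER1 in purple and the other genes in grey. The 3 brighter DICER1 probe sets lie at 1.16, 0.97 and 0.51, and the intervals of DROSHA, AGO3 and 2 dim DICER1 probe sets span 0.

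The sequence around the DICER1 start site listed first in the RefSeq table, 1 of 5, is shown as the promoter of the gene with the largest difference, at chr14:95157480-95157779, minus strand, GRCh38.p14, from 250 bases before to 50 after the start. Capitals mark its CCAAT box, the motif CCAAT sought on both strands.
DICER1 promoter: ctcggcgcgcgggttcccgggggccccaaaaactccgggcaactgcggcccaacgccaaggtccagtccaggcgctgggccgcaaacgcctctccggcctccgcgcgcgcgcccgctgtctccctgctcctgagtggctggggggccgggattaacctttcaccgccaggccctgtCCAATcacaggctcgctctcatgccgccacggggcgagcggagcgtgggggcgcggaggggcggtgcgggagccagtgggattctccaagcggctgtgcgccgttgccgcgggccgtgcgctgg
The E-box CACGTG, which MYC and USF proteins bind and near which NFX1-91 is known to act on the TERT promoter, was found in 0 of 15 RefSeq promoters of 9 of the 10 genes, and in 7.26% of the 35116 promoters of the table. CCAAT, which was chosen after the promoters were read, was in 9 of the 15, with 2 of the 5 DICER1 windows among them, the one shown included, and at least 1 window for each of AGO1, TARBP2, DROSHA and TNRC6B and 0 for AGO3, and in 34.6% of all promoters. Such matches describe the letters of these windows and no binding. AGO2, the gene missing from the 9, was left out of this search by the analysis.

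TARBP2, the double-stranded RNA-binding partner of DICER1, had 441.3, 474.5 and 502.7 on the NFX1-91 shRNA arrays, against 391.4, 395.0 and 371.6 on the control arrays. Every NFX1-91 shRNA array was above every control array, the nearest pair by 1.12 times. The log2 difference was 0.28 (SE 0.068, 95% interval 0.13 to 0.44). That interval lies below the 0.98 at which the interval of the brightest DICER1 probe set begins. Both genes were selected on these differences, and a difference in size between them was not tested.

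The Argonaute genes AGO4, AGO1 and AGO3 stand next to each other in that order on chromosome 1. AGO1, one of the Argonautes that hold the microRNA, had 250.8, 268.5 and 287.3 on the NFX1-91 shRNA arrays and 181.2, 159.5 and 165.7 on the control arrays. Its groups did not overlap, and the log2 difference was 0.62 (SE 0.087, 95% interval 0.43 to 0.82). Its neighbour AGO3 had 131.2, 131.3 and 142.8 against 134.1, 145.9 and 154.5, with overlapping groups and a log2 difference of -0.09 (SE 0.094, 95% interval -0.30 to 0.12). AGO4, which was not among the genes chosen, was dim, with 42.68, 29.4 and 46.01 against 37.23, 33.06 and 20.85, and did not pass in limma (log2 difference 0.26, SE 0.184, adjusted p = 0.373). The AGO1 and AGO3 intervals did not overlap, while the wide interval of AGO4 (-0.16 to 0.68) reached into both. AGO1 was selected on its difference in these arrays, and differences between these genes were not tested.

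TNRC6B, a GW182 protein that ties Argonaute to the deadenylases, had 228.7, 233.5 and 223.2 on the NFX1-91 shRNA arrays, against 243.4, 281.3 and 280.7 on the control arrays. It was the single member gene that was lower on every NFX1-91 shRNA array, and the nearest pair of arrays differed by a ratio of 0.959. The log2 difference was -0.22 (SE 0.081, 95% interval -0.40 to -0.03).

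The pattern of the brightest DICER1 probe set over the 6 arrays was set against 5980 genes above the median brightness, each gene's log2 signals taken from its own mean. The nearest were ASAP2, a GTPase-activating protein of ARF proteins, at a root mean square distance of 0.055, the DNA glycosylase TDG at 0.057 and the copper chaperone ATOX1 at 0.063. DDX3Y, an RNA helicase, followed at 0.065 and ANKRD46 at 0.069. ASAP2 had 339.4, 369.2 and 396.3 on the NFX1-91 shRNA arrays and 181.4, 162.4 and 162.2 on the control arrays. As the 6 arrays form 2 groups, such likeness mostly restates a similar difference between the groups.

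Around the chosen genes, 81 of 114 genes on 8 lists of the wider microRNA pathway were measured, each by its brightest probe set. By limma, 12 were higher in NFX1-91 shRNA cells, 20 were lower and 49 did not pass, or 39.5% called, where 30.0% of all 11963 genes were called, 13.4% higher and 16.6% lower. Their median log2 difference was -0.03, beside 0.00 over all genes. Their median brightness percentile was 84.5, beside 57.0 over all genes, and the part of brightness in these shares was not tested. Scaling and leaving out single arrays moved these counts. With median centring of the arrays, 14 genes were higher and 15 lower. Genes called lower came to 13 without NFX1-91 shRNA array 1, 10 without NFX1-91 shRNA array 2, 13 without control array 2 and 11 without control array 3, and those called higher to 7 without control array 2.

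**Figure D3:**
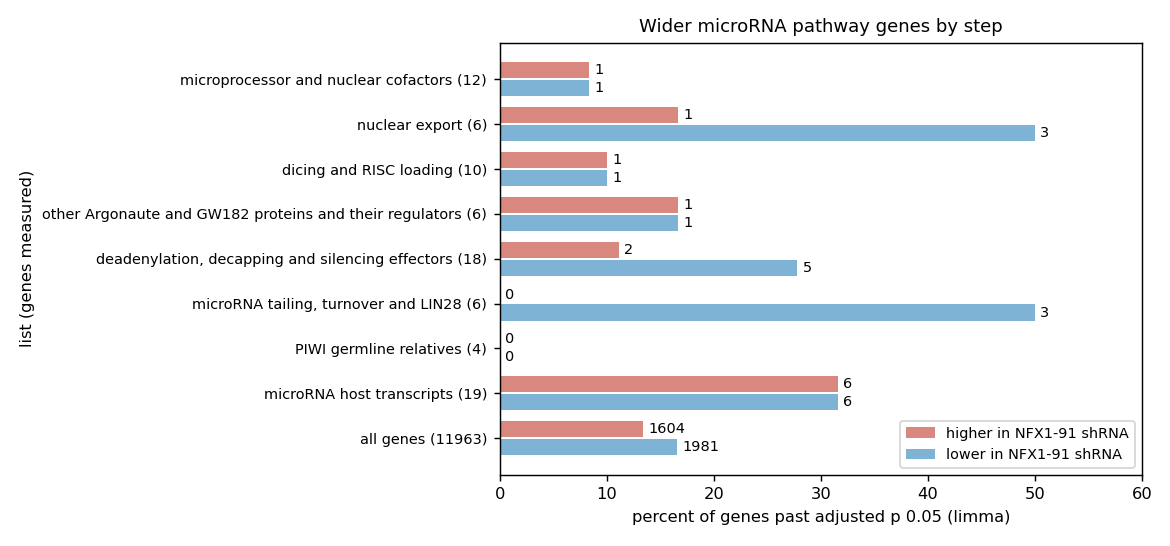
Percent of the measured genes of each wider list, and of all genes, that were higher (red) or lower (blue) in NFX1-91 shRNA arrays at an adjusted p under 0.05 by limma, with the number of genes beside each bar. Nuclear export and tailing or turnover each had 3 lower genes of 6, and host transcripts had 6 higher and 6 lower of 19.

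In the nucleus, 1 of 12 cofactors of the DROSHA step was higher and 1 lower. METTL3, the methylase that marks primary microRNA transcripts, had 756.4, 829.8 and 801.4 in NFX1-91 shRNA arrays and 645.2, 663.5 and 652.6 in control arrays (log2 difference 0.28, limma adjusted p = 0.00522). Its other, dimmer probe set did not pass (0.075, limma adjusted p = 0.728), nor did the mean of both (0.18, limma adjusted p = 0.118). The cap-binding protein NCBP2 was lower by limma (-0.16, adjusted p = 0.0213), a call lost without NFX1-91 shRNA array 1 (adjusted p = 0.0603) or 2 (0.0853) or control array 3 (0.0732), and with the mean of its probe sets (-0.10, adjusted p = 0.186). Of 6 export genes 3 were lower and 1 higher. The tRNA exporter XPOT had 1258, 1274 and 1358 against 1622, 1686 and 1709 (-0.36, limma adjusted p = 0.000569). XPO1, the exporter of many proteins and of some capped hairpins, had 2781, 2948 and 2789 against 3468, 3507 and 3361 (-0.28, limma adjusted p = 0.000819). RCC1, which loads the GTPase RAN, was also lower (-0.26, limma adjusted p = 0.00246), while its other probe set did not pass (-0.15, limma adjusted p = 0.283). In all 3 the groups stood apart by the brightest probe set. RAN, on which XPO5 depends, was higher by its brightest probe set (0.11, limma adjusted p = 0.012) and lower by its other (-0.28, limma adjusted p = 0.00108), so it has no settled direction here, and without control array 2 the first was not called (adjusted p = 0.0563).

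Among 10 genes of dicing and loading 1 was higher and 1 lower, and these are partners of each other. TSN (translin) and TSNAX (translin-associated factor X) form the nuclease that clears the discarded strand. TSN had 2725, 2755 and 2718 in NFX1-91 shRNA arrays and 2034, 2088 and 2130 in control arrays (log2 difference 0.39, SE 0.036, limma adjusted p = 9.55e-05), and its other 2 probe sets were higher as well (0.62 and 0.71). TSNAX had 601.5, 584.1 and 685.2 against 694.8, 803.1 and 873.3 (-0.33, SE 0.092, limma adjusted p = 0.0286). The TSNAX call was lost without NFX1-91 shRNA array 1 (adjusted p = 0.0999) or 2 (0.125) and without control array 2 (0.103) or 3 (0.1). Of 6 Argonaute and GW182 relatives and regulators, IPO8, an importin that binds Argonaute proteins, was higher, with 235.8, 236.8 and 192.2 against 113.9, 136.3 and 162.3 (0.64, SE 0.134, limma adjusted p = 0.00773). FAM120A was lower by limma (-0.13, adjusted p = 0.0194), a call lost without NFX1-91 shRNA array 2 (0.0767) or 3 (0.0573) or control array 2 (0.0737) or 3 (0.063). Another FAM120A probe set had a positive difference that did not pass (0.14, limma adjusted p = 0.216) and the mean of its probe sets was 0.0037, so it has no settled direction here.

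Downstream of Argonaute, 2 of 18 effectors of deadenylation and decapping were higher and 5 lower. DCP2, the decapping enzyme, had 909.0, 961.7 and 1020.0 in NFX1-91 shRNA arrays and 667.6, 603.7 and 637.9 in control arrays (log2 difference 0.59, SE 0.062, limma adjusted p = 0.000202). Those lower included subunits of the CCR4-NOT deadenylase and a protein that recruits it. CNOT7, a catalytic subunit, had 1865, 1902 and 1813 against 2140, 2278 and 2363 (-0.28, limma adjusted p = 0.00239), and CNOT3, a structural subunit, 360.1, 350.8 and 317.2 against 438.0, 429.1 and 486.5 (-0.38, limma adjusted p = 0.00628). The other, dimmer CNOT3 probe set did not pass (-0.53, limma adjusted p = 0.057). TOB2, which recruits the deadenylase, had 802.0, 895.1 and 934.8 against 1193, 1249 and 1178 (-0.46, limma adjusted p = 0.000863). Of the 3 enzymes of tailing and turnover that were lower among 6 measured genes, PARN, a poly(A) nuclease, had 550.5, 559.9 and 562.7 against 766.7, 701.3 and 699.3 (-0.36, limma adjusted p = 0.00168). The uridylyl transferases TUT1 (-0.57, limma adjusted p = 0.0218) and TUT7 (-0.29, limma adjusted p = 0.0344) were lower as well. TUT1 was not called without NFX1-91 shRNA array 1 (0.081) or 2 (0.0944) or control array 2 (0.0772) or 3 (0.0651), and TUT7 was not called with any single array left out (adjusted p from 0.0508 to 0.115). The 4 measured PIWI germline genes, relatives and partners of Argonaute in the germline, were dim and 0 of them passed in limma, nor did any at an unadjusted p under 0.05.

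MicroRNAs themselves are not read by this array, but 19 genes whose introns or exons hold microRNA hairpins were, and 6 of them were higher and 6 lower by limma. Among the 6 higher was HUWE1, the host of miR-98 and let-7f, named after its values were seen. Its brightest probe set carries the suffix of probes that may bind other transcripts (log2 difference 0.13, limma adjusted p = 0.0149). Its other probe sets did not pass (-0.12, 0.19 and 0.24, limma adjusted p = 0.191, 0.485 and 0.575). The level of a host transcript is not the level of its microRNA. Hosts whose microRNAs share a seed are set side by side below. DLEU2, a non-coding host of miR-15a and miR-16, had 649.6, 729.8 and 760.4 in NFX1-91 shRNA arrays and 287.7, 295.2 and 267.0 in control arrays (log2 difference 1.28, SE 0.076, limma adjusted p = 1.19e-05). That probe set carries the suffix of probes that may bind other transcripts, and the other DLEU2 probe set, which is dim, did not pass (0.24, limma adjusted p = 0.295). SMC4, a condensin subunit that hosts miR-15b and another copy of miR-16, did not pass, with 1464, 1467 and 1470 against 1717, 1597 and 1476 (-0.12, limma adjusted p = 0.175). The mature sequences, from RefSeq on GRCh38.p14 with the seed (bases 2 to 8) in capitals, are shown because these hosts feed 1 seed. They lie at chr13:50049167-50049188 (minus), chr13:50049027-50049048 (minus) and chr3:160404607-160404628 (plus).
miR-15a-5p: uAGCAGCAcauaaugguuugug
miR-16-5p: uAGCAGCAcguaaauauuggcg
miR-15b-5p: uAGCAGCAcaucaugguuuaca

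The 3 small CTD phosphatase genes, which host the miR-26 family, went different ways. CTDSPL, the host of miR-26a-1, had 378.7, 429.8 and 435.4 in NFX1-91 shRNA arrays and 216.0, 202.5 and 223.3 in control arrays (log2 difference 0.90, SE 0.080, limma adjusted p = 8.05e-05). Of its 4 other probe sets, 3 were called higher too. CTDSP1, the host of miR-26b, had 104.2, 126.0 and 128.3 against 359.8, 306.3 and 285.5 (-1.30, SE 0.113, limma adjusted p = 7.51e-05). CTDSP2, the host of miR-26a-2, had 557.9, 564.3 and 519.2 against 606.1, 611.9 and 609.3 and did not pass (-0.15, limma adjusted p = 0.0826). The sequences below show that miR-26a, made from both the CTDSPL and the CTDSP2 gene, and miR-26b have the same seed, so hosts of 1 seed family were called in opposite directions. They lie at chr3:37969413-37969434 (plus) within CTDSPL and chr2:218402657-218402677 (plus) within CTDSP1.
miR-26a-5p: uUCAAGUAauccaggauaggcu
miR-26b-5p: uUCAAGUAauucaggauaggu

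In the miR-33, miR-103a and miR-218 families 1 host was called and the other was not. SREBF2, the sterol regulator that hosts miR-33a, was lower by both of its probe sets (log2 differences -0.42 and -0.68, limma adjusted p = 0.0227 and 0.000766), and SREBF1, the host of miR-33b, had -0.03 (limma adjusted p = 0.775). PANK3, a host of miR-103a, was higher by both probe sets (0.20 and 0.43, limma adjusted p = 0.0342 and 0.0172), and PANK2, its other host, had 0.12 (limma adjusted p = 0.422). SLIT3, a host of miR-218, was higher by its brightest probe set (0.51, limma adjusted p = 0.0304), while its dimmer ones did not pass (0.29 and 0.105, limma adjusted p = 0.115 and 0.715). SLIT2, its other host, had -0.155 (limma adjusted p = 0.655). The SLIT3 call was not followed with single arrays left out. MCM7, the helicase subunit that hosts miR-25, miR-93 and miR-106b, shares no seed with another measured host. It was lower, with 2823, 2795 and 2492 against 3367, 3320 and 3287 (-0.30, limma adjusted p = 0.00251), while its other probe set did not pass (-0.14, limma adjusted p = 0.105). The brightest SREBF2 probe set was not called with any single NFX1-91 shRNA array left out (limma adjusted p = 0.0632, 0.0612 and 0.0873 for arrays 1, 2 and 3) or control array 2 (0.0939) or 3 (0.0802). That of PANK3 was not called without NFX1-91 shRNA array 2 (0.124) or 3 (0.0881) or control array 2 (0.123) or 3 (0.0689), and SMC4 was called without control array 3 (-0.17, limma adjusted p = 0.0464). The differences between hosts of a family were not tested as such. SMC4, CTDSP2, SREBF2, SREBF1, PANK2, PANK3, SLIT2 and SLIT3 were named after their values were seen, as hosts that share a seed.

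**Figure D4:**
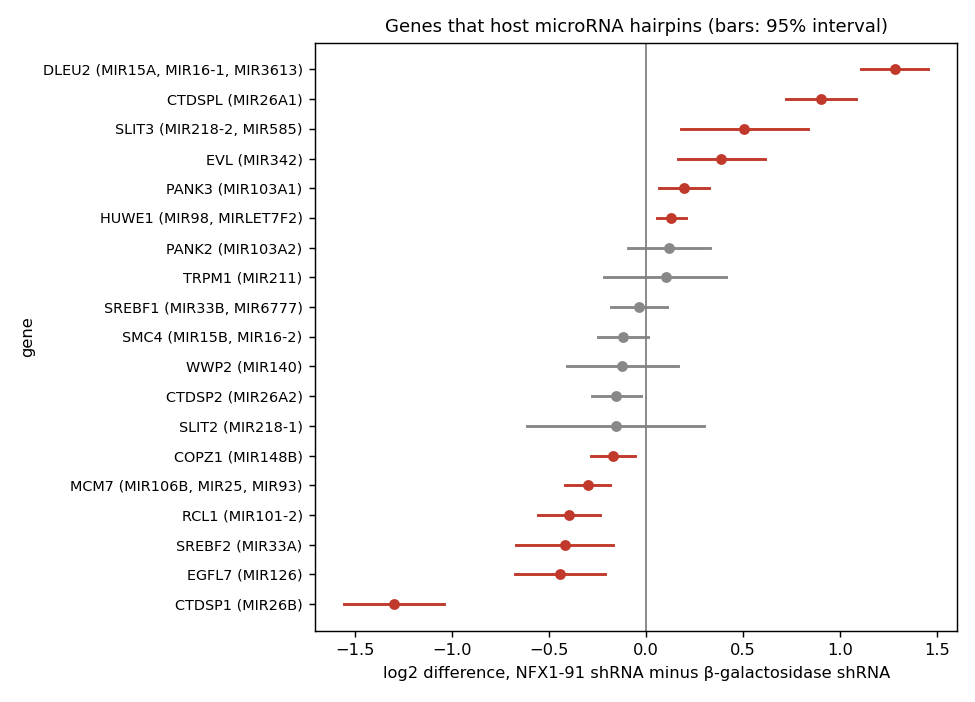
Log2 difference (NFX1-91 shRNA minus β-galactosidase shRNA; points) with its 95% interval (bars) of the 19 measured genes that hold microRNA hairpins, named in brackets, with genes past an adjusted p of 0.05 by limma in red and the others in grey. DLEU2 (1.28) and CTDSPL (0.90) stand at the top and CTDSP1 (-1.30) at the bottom.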

How the data were processed

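Biotin-labelled RNA of 6 HCT116 samples was read on Affymetrix arrays, per the labels' protocols. The deposited table holds linear intensity values for 22215 probe sets, and each column sums to 1. The authors' probe summary was not given in the sources used here. Arrays were scaled to a mean of 500, an offset of 16 was added and log2 taken, without normalization beyond that. On each array 24.1% to 25.9% of probe sets were under the offset.

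Names came from the platform annotation (19064 with 1 gene, 1043 with several, 2108 with none), checked by gene identifier against RefSeq (GRCh38.p14), where 19052 matched and 0 symbols changed. The comparison used limma 3.58.1 with R 4.3.3 (unpaired, variance trend, two-sided), with Benjamini-Hochberg adjustment over all probe sets. A gene on the wider lists was read by its brightest single-gene probe set. Figures used Python 3.11.15 and matplotlib 3.10.9.

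The members and lists were chosen with earlier results of these data known. Named genes were all members, NFX1, up to 4 called genes with the smallest adjusted p per wider list, DLEU2, AGO4 and the 5 genes nearest to DICER1 in pattern. The fit was tested on simulated data. Alternatives were quantile normalization, median centring, offsets of 1 and 64, leaving out probe sets below the 40th percentile of brightness, no variance trend, a threshold of 0.01, a replicate block, each array left out in turn and, for wider lists, averaging a gene's probe sets.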

Additional observations from a re-analysis of the deposited data

How the results depend on the processing

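The brighter DICER1 probe sets and AGO1 kept direction and call in all 14 alternatives, with log2 differences of 1.002 to 1.22 for 212888_at, 0.71 to 1.10 for 213229_at, 0.37 to 0.58 for 206061_s_at and 0.52 to 0.68 for AGO1. With each array left out in turn, TARBP2 ran from 0.24 to 0.33, TNRC6B from -0.28 to -0.18, DROSHA from -0.072 to 0.017 (and 0.0094 with quantile normalization), 216280_s_at from 0.39 to 0.80, 216260_at from -0.55 to -0.18 and 216281_at from -0.035 to 0.15. The NFX1 probe set 202585_s_at ran from -0.14 to 0.0069. With median centring 216280_s_at passed at 0.61, and with an offset of 1 at 1.68. At a threshold of 0.01 TARBP2 (0.28) and the dimmest NFX1 probe set (-0.60) were not called. The cause was not tested.

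Member probe sets called higher came to 4 to 6 and those called lower to 0 to 1 with an array left out. Wider pathway genes called higher then ran from 7 to 17 and lower from 10 to 22, and all probe sets called higher from 1669 to 2761, with fewer arrays in each fit. Over all probe sets, 2656 were called higher and 3047 lower in the main fit. With quantile normalization these were 2952 and 2929, and with median centring 2976 and 2696, so the lean toward lower calls depended on scaling. Without a variance trend 13 wider genes were lower. At a threshold of 0.01, 6 were higher and 10 lower, and 1535 probe sets in all were higher. By the mean of their probe sets RAN (-0.082), FAM120A (0.0037) and LSM14A (0.13) turned sign, since their probe sets disagree. SREBF1 ran from -0.089 to 0.0016 with an array left out. Of 583 alternative values for 39 named genes outside the members, 519 kept direction and call and 59 lost the call. Many of the 39 were picked for a small adjusted p in the main fit, and the called colon markers and genes named after their values were seen are among them. A gene not called in the main fit counts as kept while it stays uncalled, so these counts are a description and carry no test.

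Replicate numbers from the titles did not pair the arrays: deviations of same-numbered arrays from their group means correlated at -0.058, 0.087 and -0.088. Array 3 of the NFX1-91 shRNA group correlated best with control array 1 (0.147). With the replicate block, 212888_at had the same log2 difference (1.16), and 5 member probe sets were higher and 0 lower, beside 13 and 18 wider genes and 2265 and 2649 probe sets in all. TUT7 and PANK3 (by its brightest probe set) lost their calls with the block. Among named genes outside the members, TUT7 also lost its call with quantile normalization, and NCBP2, FAM120A and TUT7 lost theirs with median centring. Without the variance trend NCBP2, RAN, TSNAX, FAM120A, EPCAM, SREBF2, PANK3 and LSM14A were not called by their brightest probe sets. Dim DICER1 probe sets were left out with the filter on brightness and have no value there. Signal over background limits what they show.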

Other observations

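Probe sets that the annotation lists for a gene of the microRNA machinery together with a second gene were not used above. The 1 listed for both CASC7 and AGO2 had 398.5, 411.0 and 441.6 in NFX1-91 shRNA arrays and 563.3, 594.8 and 551.1 in control arrays (log2 difference -0.44, SE 0.064, limma adjusted p = 0.00118). It does not say which of the genes it reads. Of the 4 listed for both DGCR8 and MIR1306, 3 had log2 differences of -0.12, -0.24 and -0.18 and the dimmest 0.08, and 0 of 4 passed in limma (adjusted p from 0.0643 to 0.862), where 1 was lower at an unadjusted p under 0.05.

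LSM14A, a P-body protein named here after its values were seen, was lower by its brightest probe set (log2 difference -0.18, limma adjusted p = 0.0153) and higher by its other 2 (0.30 and 0.26, limma adjusted p = 0.00308 and 0.0405). The call of the brightest was lost without NFX1-91 shRNA array 2 (adjusted p = 0.0642) and without control array 2 (0.0727) or 3 (0.0525). Of the 32 called genes on the wider lists 17 had other probe sets. For 6 of the 17 another probe set was called the same way, and for 2, RAN and LSM14A, another was called the opposite way.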
